A study of Mus musculus with 6 samples.

Results

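Type I interferon antiviral response genes were followed over 3 groups of cultured CD4+ (helper) T cells of the mouse, labelled Control, RA and Ro. The 39 genes listed were matched by symbol to probe sets that the platform annotation assigns to exactly 1 gene, and each gene was represented by its probe set with the highest mean log2 signal over the arrays. This gave 36 measured members among 18193 genes with such a probe set. Oas1g, Isg15 and Ifi44 had no probe set of their own under this rule and are not analysed here. All 36 passed the filter on dim signals, and all 36 lay above its limit on both RA and both Ro arrays, so that none passed through Ro alone, while 30 lay above it on all 6 arrays.

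Each group had 2 arrays, and every array was hybridised with total RNA of CD4+ T cells from mouse spleen together with peripheral and mesenteric lymph nodes, cultured in vitro. The series title names retinoic acid (RA), while Ro is left unexplained by the labels. Strain, age and sex of the mice, doses and the number of animals behind an array are not stated in the labels. Culture conditions are listed for a single array, Control replicate 2: the human cytokines hIL-2 and hTGF-b1, the mouse cytokines mIL-6, mIL-1b, mIL-23, mIL-21 and mTNF-a, and antibodies that block mIL-4 and mIFN-gamma, for 5 days. The labels do not say whether the other 5 arrays share them. Replicates are not described as separate mice or cultures, and the p-values below therefore reflect only how far these arrays spread, which may be technical.

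Type I interferons are secreted when cells sense viral nucleic acids. They bind a receptor made of Ifnar1 and Ifnar2, whose kinases Jak1 and Tyk2 switch on STAT proteins, among them Stat2, which with Irf9 enters the nucleus and binds interferon-stimulated response elements in front of many genes. The products of these genes sense viral RNA, cut it, block its translation or stop virus assembly, and some, such as Irf7, Stat2 and Irf9, feed back on the pathway. T cells carry the receptor, and the same genes are also kept at a lower level without infection by tonic interferon signalling.

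The response element is the shared feature by which many of these genes are known, so the 300-base windows from 250 bases before to 50 bases after annotated gene starts were searched for its core, GAAA followed by any 2 bases and GAAA again, on both strands. RefSeq windows of build GRCm38.p6 were matched for 26 of the 36 measured members. The core was present for 12 of these 26 genes (46.2%), against 3.99% of the 27025 genes in the table and 3.44% of its 32851 windows. The element of interferon gamma signalling, TTCNNNGAA, which reads the same on both strands, was present for 8 of 26 (30.8%) and 9.55% of all genes, and for 2 members, Bst2 and Ifitm3, a match to it overlapped a match to the core. A match is a string of letters and no evidence of binding. The windows below are those of the 5 members with the core and the lowest values in RA relative to Ro, followed by that of Oasl2, the member with the lowest such value among those whose window lacked it. Capitals mark the core on either strand.
Ifit3, chr19:34583279-34583578, plus strand: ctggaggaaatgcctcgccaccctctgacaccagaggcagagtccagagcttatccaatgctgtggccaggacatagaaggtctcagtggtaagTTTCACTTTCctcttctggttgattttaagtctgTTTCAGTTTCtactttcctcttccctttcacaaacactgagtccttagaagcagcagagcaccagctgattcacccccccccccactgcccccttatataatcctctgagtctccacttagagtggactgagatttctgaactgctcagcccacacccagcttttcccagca
Ifitm3, chr7:141010695-141010994, minus strand: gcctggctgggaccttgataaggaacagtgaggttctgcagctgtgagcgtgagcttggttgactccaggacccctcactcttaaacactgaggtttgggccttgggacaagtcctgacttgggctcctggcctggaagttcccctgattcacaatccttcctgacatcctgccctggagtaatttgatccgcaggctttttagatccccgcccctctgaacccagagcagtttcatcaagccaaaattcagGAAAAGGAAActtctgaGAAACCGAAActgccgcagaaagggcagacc
Rsad2, chr12:26456403-26456702, minus strand: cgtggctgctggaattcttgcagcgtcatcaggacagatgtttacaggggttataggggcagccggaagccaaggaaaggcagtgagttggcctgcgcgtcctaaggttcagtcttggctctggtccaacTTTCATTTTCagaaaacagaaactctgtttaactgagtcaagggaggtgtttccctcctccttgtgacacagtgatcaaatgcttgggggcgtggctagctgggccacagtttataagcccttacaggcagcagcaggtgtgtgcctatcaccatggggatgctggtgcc
Ifit1, chr19:34640639-34640938, plus strand: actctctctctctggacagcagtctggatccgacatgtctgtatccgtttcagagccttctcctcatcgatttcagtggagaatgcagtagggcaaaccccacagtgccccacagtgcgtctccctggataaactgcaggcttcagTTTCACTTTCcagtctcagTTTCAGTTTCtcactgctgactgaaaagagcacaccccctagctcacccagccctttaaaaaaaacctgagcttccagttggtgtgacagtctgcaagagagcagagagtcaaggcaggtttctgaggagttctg
Stat2, chr10:128270248-128270547, plus strand: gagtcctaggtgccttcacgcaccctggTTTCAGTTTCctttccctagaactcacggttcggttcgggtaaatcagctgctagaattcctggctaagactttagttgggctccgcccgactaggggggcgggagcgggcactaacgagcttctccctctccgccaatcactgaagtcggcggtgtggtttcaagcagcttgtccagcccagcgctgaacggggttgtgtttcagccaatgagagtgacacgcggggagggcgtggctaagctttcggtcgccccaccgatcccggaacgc
Oasl2, chr5:114896684-114896983, plus strand: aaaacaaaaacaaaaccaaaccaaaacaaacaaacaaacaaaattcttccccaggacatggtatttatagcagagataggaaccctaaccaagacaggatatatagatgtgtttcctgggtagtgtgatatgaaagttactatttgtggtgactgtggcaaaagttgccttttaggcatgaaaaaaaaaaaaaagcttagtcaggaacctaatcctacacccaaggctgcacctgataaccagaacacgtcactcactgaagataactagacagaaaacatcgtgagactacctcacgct

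The sequences come from RefSeq. In Ifit3 the 2 cores begin 156 and 122 bases before the start, and in Ifit1 they begin 104 and 85 bases before it, with the same letters, TTTCACTTTC and TTTCAGTTTC, in the same order in both genes. Ifitm3 differs in having its 2 cores 2 and 19 bases after the start. Rsad2 has 1 core 120 bases before the start, and Stat2 has 1 at 222 bases. Members with the core had a median log2 difference of RA minus Ro of -1.33 (from -2.91 to -0.62), and the 14 without it -0.88 (from -2.18 to -0.22), ranges that overlap for most of their length. Several members also lie side by side in the RefSeq gene order of that assembly, with no other protein-coding gene between them: Rsad2 and Cmpk2, Parp14, Dtx3l and Parp9, Ifit2 and Ifit3, Oas2 and Oas3, and Oasl2 and Oasl1.

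The arrays differed in ways that touch every result. Log2 values of tested probe sets correlated at 0.947 to 0.970 among 5 of the arrays, and at 0.869 to 0.880 between these and Control replicate 2, which stood apart. Values of each array were set against that array's own median, called centred below, which leaves these correlations unchanged. Overlap between groups was judged on centred values, while signals are given as deposited, in arbitrary units. T cell markers were bright everywhere. Cd3d and Cd4 had signals of 6059 to 7512 and 463 to 1791 over the 6 arrays, whereas the CD8 genes lay between 12.7 and 53.0 (Cd8a) and between 54.6 and 164 (Cd8b1), and the 5 B cell markers reached at most 84.5 (Cd79b on Control replicate 2). Cd8b1 was also lower in RA than in Ro without overlap (28.0% of all tested probe sets), at 54.6 and 86.7 against 124 and 164. Cd8a overlapped between these groups, at 20.1 and 25.7 in RA against 34.9 and 20.6 in Ro. The part of Cd8b1 in the results below was not tested.

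**Figure D1:**
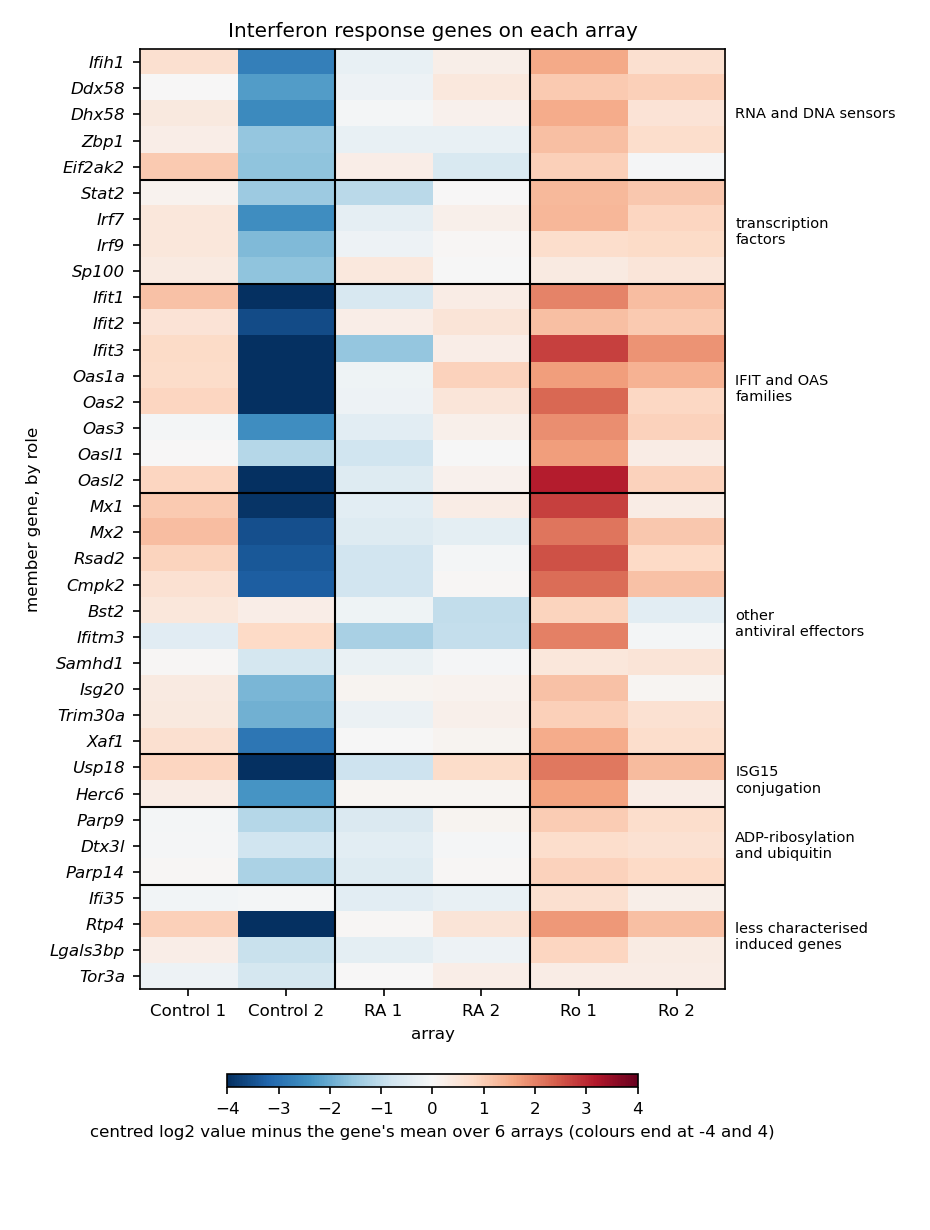
Heat map of the 36 member genes (rows, grouped by role) on the 6 arrays (columns), coloured by the centred log2 value minus the gene's own mean over the arrays. Control 2 is the lowest array for 33 of 36 genes and Ro 1 the highest for 32, and the RA columns lie between.

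RA and Ro cultures were compared first. Interferon response genes lay lower in RA: the value of every one of the 36 members was lower (62.6% of all tested probe sets), by a median of -1.11 on the log2 scale, where the median of all tested probe sets was -0.12. For 32 of the 36 (88.9%) both RA arrays lay below both Ro arrays, against 28.0% of all tested probe sets, and the reverse held for no member and 9.29% of all. The mean signal in Ro was 1.19 to 6.77 times that in RA, with a median of 2.23 times. The limma fit of all 6 arrays, adjusted by Benjamini-Hochberg over 29531 probe sets, called none of the members and 0% of all probe sets, and 5 members, Stat2, Ifitm3, Parp9, Dtx3l and Ifi35, had an unadjusted p under 0.05 (2.03% of all probe sets). With 2 arrays against 2 an exact permutation test of a single gene cannot go below 0.333.

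The sensors of viral nucleic acid, Ifih1, Ddx58 and Dhx58, which bind viral RNA in the cytosol, were all lower in RA by value. Ifih1 (MDA5) stood at signals of 249 and 417 in RA, 989.6 and 569.7 in Ro and 616 and 40.4 in Control. Ddx58 (RIG-I) measured 373 and 671 in RA, 1002 and 985 in Ro and 565 and 82.8 in Control. The groups RA and Ro did not overlap for either gene, and the log2 differences were -1.11 (SE 0.98) and -0.89 (SE 0.69). Dhx58, a helicase without the signalling domains of the other sensors, had 210.2 and 289.7 in RA against 697 and 385 in Ro. Zbp1, which recognises left-handed nucleic acid and can trigger cell death, had 587 and 671 in RA and 1846 and 1376 in Ro, which differ by -1.24 (SE 0.57) in log2. Eif2ak2 (PKR), the kinase that halts translation on double-stranded RNA, was the sensor whose RA and Ro arrays overlapped, at 124 and 75.9 in RA and 221 and 117 in Ro.

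Among the transcription factors of the pathway, Stat2 had the widest gap. Its signals were 88.5 and 221 in RA, 533 and 484 in Ro and 277 and 62.6 in Control, with -1.74 (SE 0.60) in log2 between RA and Ro. Irf7, the factor that amplifies interferon production, stood at 412 and 689.6 in RA and 1467 and 1132 in Ro, and Irf9, the DNA-binding partner of Stat2, at 667 and 899.9 in RA and 1373 and 1549 in Ro. None of these 3 genes overlapped between RA and Ro. Sp100, a component of nuclear bodies, differed by only -0.22 (SE 0.61), with RA signals, 675 and 573, that overlapped those of Ro, 716 and 842.

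The IFIT and OAS families held the widest differences. IFIT proteins bind foreign RNA ends and block translation, and OAS enzymes make the messenger that activates RNase L, which degrades RNA. Ifit3 had signals of 126 and 515 in RA, 2799 and 1538 in Ro and 811 and 18.4 in Control, a log2 difference of -2.91 (SE 1.42) and the lowest value of all members. Ifit1 stood at 145 and 322 in RA and 1009 and 638 in Ro, with 663 and 9.89 in Control. Ifit2 was closer between the groups, at 436 and 600.0 in RA and 952 and 894 in Ro. All 8 measured genes of these families had both RA arrays below both Ro arrays (28.0% of all tested probe sets), and their median log2 difference was -1.47. Among the OAS enzymes, Oas1a had 213 and 520.0 in RA and 854 and 738 in Ro. Oas2 had 88.8 and 168 in RA and 580.1 and 222 in Ro, and Oas3 139 and 247 in RA against 772 and 421 in Ro. The related genes Oasl1 and Oasl2, of which Oasl1 restrains translation of Irf7, were lower in RA as well. Oasl1 had 33.2 and 68.3 in RA and 220.1 and 89.1 in Ro, and Oasl2 had 74.6 and 142 in RA against 1074 and 243 in Ro. Oas1a and Oas1g are close relatives in sequence, and whether the Oas1a probe set also takes up signal of Oas1g was not tested.

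Of the other antiviral effectors, Mx2, Rsad2, Cmpk2 and Ifitm3 differed most. Mx2, a dynamin-like GTPase, had 36.6 and 46.9 in RA and 274 and 141 in Ro, which differ by -2.07 (SE 1.35) in log2. Rsad2 (viperin), which makes a nucleotide that terminates viral RNA chains, had 147 and 274 in RA and 1635 and 517 in Ro, with 602 and 19.4 in Control. Cmpk2, a mitochondrial nucleotide kinase, had 54.5 and 114 in RA and 509 and 258 in Ro. Ifitm3, a membrane protein that blocks virus entry, stood at 123 and 180.3 in RA and 1398 and 349 in Ro, and Mx1 at 66.1 and 129 in RA and 682 and 134 in Ro. In Ifitm3 and Mx1 the replicates of Ro were 2.08 and 2.41 apart on the log2 scale, close to or above the size of the difference between the group means, -2.12 and -1.59. Samhd1, which depletes nucleotides, Trim30a and the pro-apoptotic Xaf1 had narrower gaps, with log2 differences of -0.63, -0.82 and -1.05 and no overlap. Bst2 (tetherin), which holds budding virus on the cell, and the exonuclease Isg20 overlapped between RA and Ro, at 361 and 236 in RA and 849 and 359.6 in Ro for Bst2 and 542 and 647 in RA and 1272 and 631 in Ro for Isg20.

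Usp18 removes the ubiquitin-like modifier encoded by Isg15 and also shuts off the receptor, and Herc6 is a ligase that attaches that modifier in mice. Usp18 had signals of 243 and 821 in RA, 2076 and 1238 in Ro and 1009.8 and 20.0 in Control, and Herc6 had 215 and 252 in RA and 704 and 297 in Ro. Neither gene overlapped between RA and Ro. The complex of Parp9, an ADP-ribosylating enzyme, with the ubiquitin ligase Dtx3l, and their neighbour Parp14, did not overlap between RA and Ro. Parp9 stood at 780.4 and 1447 in RA and 2634 and 2253 in Ro, Dtx3l at 904 and 1325 in RA and 2173 and 2165 in Ro, and Parp14 at 684 and 1175 in RA and 2061 and 2013 in Ro. Their log2 differences were -1.10 (SE 0.43), -0.89 (SE 0.34) and -1.09 (SE 0.46). Of the remaining members, Rtp4, a chaperone of receptors, had 825 and 1314 in RA against 2965 and 2161 in Ro, Ifi35 1804 and 2272 in RA against 4206 and 3329 in Ro and the secreted glycoprotein gene Lgals3bp 718 and 937 in RA against 1887 and 1384 in Ro. Tor3a, an ATPase of the endoplasmic reticulum, had the smallest difference of all members on the probe sets used. It stood at 86.9 and 122 in RA against 120.0 and 128 in Ro, which overlap as signals though not once centred.

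**Figure D2:**
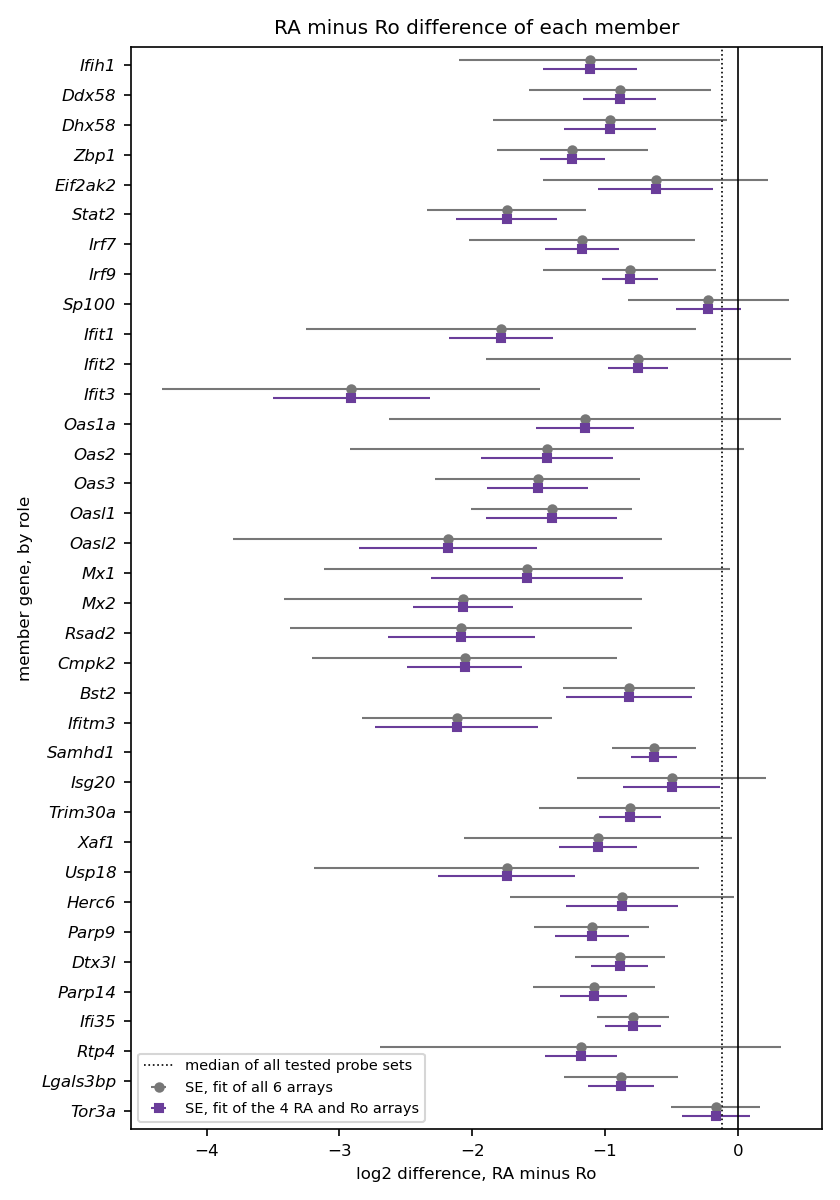
Log2 difference of RA minus Ro (horizontal axis) for each of the 36 members (vertical axis, by role), with the SE from the limma fit of all 6 arrays (circles) and of the 4 RA and Ro arrays (squares). All points lie below 0, the dotted line marks the median of all tested probe sets at -0.12, and the bars of the 6-array fit are wider.

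More than 1 probe set was present for 17 members. Over the 64 probe sets of the 36 members, every value was lower in RA than in Ro, with log2 differences from -2.91 to -0.06. Of the 64, 54 (84.4%) were lower without overlap, against 28.0% of all tested probe sets. In a limma fit without the Control arrays, which leaves 4, the median SE of the members was 0.36 in place of 0.81, and 29 of 36 had an unadjusted p under 0.05, against 6.13% of 27900 probe sets in that fit, or 4.84% counting those lower in RA. None passed after adjustment (lowest limma adjusted p 0.459), and 8 probe sets of the whole table did (0.0287%). Dropping 1 more array from that fit leaves 2 arrays against 1, so that the lone array's group has no spread of its own. No conclusion is drawn from the counts of such reduced fits, which are given next for completeness. In that fit 24 members were called without Ro replicate 2 (1.88% of all probe sets) and 8 without Ro replicate 1 (3.45% of all), where the lone Ro array is assumed to vary like RA, and none without RA replicate 1 or without RA replicate 2.

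Most members also differed in the same direction between the replicates of a group. Ro replicate 1 was above Ro replicate 2 for 33 of 36 members, by a median of 0.77 on the log2 scale, whereas 45.9% of all tested probe sets had their higher value there. RA replicate 2 was above RA replicate 1 for 32 of 36, by a median of 0.45, against 45.3% of all. The nearest arrays of the groups, Ro replicate 2 and RA replicate 2, differed by a median of 0.57, with 35 of 36 members higher in Ro replicate 2 (66.9% of all tested probe sets). Thus the gap between the nearest arrays of the groups was smaller than that between the replicates of Ro. Differences over 1 between the Ro replicates were found in 11 members and were widest for Mx1 and Oasl2, at 2.41 and 2.22. Between the RA replicates they were found in 4 members, Ifit3, Usp18, Stat2 and Oas1a. The 4 members closest between the Ro replicates were Tor3a, Samhd1, Irf9 and Dtx3l, and for Dtx3l the difference was 0.09.

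**Figure D3:**
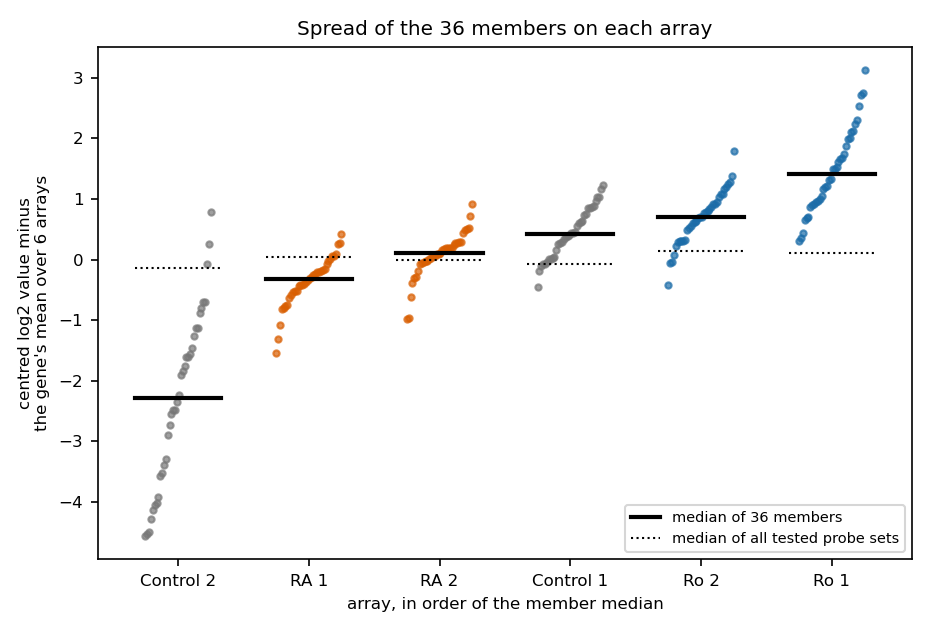
Centred log2 value minus the gene's own mean (vertical axis) of the 36 members (points) on each array (horizontal axis), with the median of the members (solid bar) and of all tested probe sets (dotted bar). Member medians run from -2.29 on Control 2 over -0.32 and 0.10 on the RA arrays and 0.43 on Control 1 to 0.69 and 1.41 on the Ro arrays.

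The comparisons of RA and of Ro with Control ask how either culture differs from the one labelled Control, and they share their Control arrays. For the interferon response genes these 2 arrays stood on opposite sides of RA. Control replicate 1 was above both RA arrays for 29 of 36 members (24.4% of all tested probe sets) and lay above both RA arrays and below both Ro arrays for 21 (5.45% of all). Control replicate 2 was the lowest of the 6 arrays for 33 members (39.6% of all). The 2 Control arrays differed by a median of 2.53 on the log2 scale.

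Several effectors that were bright on Control replicate 1 were near the bottom of the scale on Control replicate 2. Oasl2 had signals of 256 and 1.36 on these arrays, Mx1 245 and 2.72, Mx2 169.8 and 1.62 and Oas2 249 and 2.07. Usp18 stood at 1009.8 and 20.0 and Rtp4 at 2006 and 29.6, above the median signal of Control replicate 2, 16.2. For 16 members the signal of Control replicate 1 was more than 10 times that of Control replicate 2. These ranged on Control replicate 2 from 1.36 (Oasl2) to 98.3 (Xaf1), and for the dimmest the size of the difference is uncertain. Members that were not lowest on Control replicate 2 were Bst2, Ifitm3 and Ifi35, with signals of 454, 497 and 2116 there. Ifitm3 was higher on Control replicate 2 than on every array but Ro replicate 1, and Samhd1, Dtx3l and Lgals3bp kept signals of 2307, 639.9 and 467.

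The group comparisons with Control turned on which Control array was used. The median log2 difference of the members was 0.86 for RA minus Control, where that of all tested probe sets was 0.12. It was -0.54 without Control replicate 2 and 2.36 without Control replicate 1. For Ro minus Control it was 2.03 (0.22 for all), or 0.63 without Control replicate 2 and 3.27 without Control replicate 1, so that Ro lay above either Control array in the median of the members. No member was called in either comparison with limma on all 6 arrays (0% of all probe sets in both), where 0 and 13 members had an unadjusted p under 0.05, against 2.46% and 8.54% of all probe sets. Without Control replicate 1, limma called 24 members higher in RA and 31 higher in Ro, alongside 11.6% and 17.9% of all probe sets in either direction, with the lone Control replicate 2 assumed to vary like the other groups. Both Ro arrays lay above both Control arrays for 26 members (30.9% of all tested probe sets), or 17 after quantile normalization (17.3% of all), and below them for no member (9.51% of all). Both RA arrays lay below both Control arrays for 3 members, Bst2, Ifitm3 and Ifi35 (9.82% of all), and above for Tor3a (21.2%).

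Median differences of the lists upstream of these genes were nearer to 0, a contrast that was not tested. None of the genes on the lists described next passed the limma test on all 6 arrays, in either direction. Ifnar1 had signals of 599 and 797 in RA, 767 and 1067 in Ro and 786 and 143 in Control, and Ifnar2 had 807 and 638 in RA, 910.3 and 642 in Ro and 668 and 421 in Control. Jak1 stood at 2328 and 3889 in RA and 3497 and 4748 in Ro, and Tyk2 at 264 and 312 in RA and 334 and 470.4 in Ro. For the receptor chains and for Jak1 the RA and Ro arrays overlapped, whereas Tyk2 was lower in RA without overlap. Over the 8 receptor, kinase and STAT genes tested, 5 were lower in RA by value, near the 62.6% of all tested probe sets that were. Without overlap 3 were lower and 1 was higher, against 28.0% and 9.29% of all tested probe sets. The median log2 difference was -0.32. The largest differences on that list were Stat3, at -0.70 (SE 0.41), Ifngr2, a chain of the interferon gamma receptor, at 0.66 (SE 0.31), and Jak2, at -0.41 (SE 0.32).

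Transcripts of the interferons themselves were dim in most cultures. Ifnb1, which encodes interferon beta, had signals of 10.5 and 6.29 in RA, 13.7 and 16.5 in Ro and 17.3 and 18.3 in Control. Dim as they were, both RA values lay below those of Ro (28.0% of all tested probe sets) and of Control (9.82%). The log2 difference of RA minus Ro was -0.59 (SE 0.48). Ifna2 and Ifna4 did not pass the filter on dim signals. Ifng, encoding interferon gamma, stood at 3.15 and 25.5 in RA, 17.6 and 85.5 in Ro, and 3.86 and 2054 in Control. It was thus highest on Control replicate 2, the array where most members were lowest. Irf3, the factor that starts interferon transcription, had 843 and 947 in RA and 867 and 1338 in Ro. Tbk1, the kinase that activates Irf3, had a log2 difference of -0.53 (SE 0.29) between RA and Ro. The list of 6 tested ligands and switches had a median of -0.35. Without overlap 2 of the 6 were lower in RA and 1 was higher, against 28.0% and 9.29% of all tested probe sets.

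Of the 8 other sensors and adaptors tested, 5 were lower in RA by value (median -0.31), again near the share of all probe sets. Without overlap 4 were lower and 2 were higher, against 28.0% and 9.29% of all tested probe sets. Tlr7, the endosomal sensor of single-stranded RNA, had 1.73 and 49.6 in RA and 235 and 101 in Ro, which differ by -3.22 (SE 1.16) in log2, whereas Tlr9, the sensor of bacterial DNA motifs, was higher in RA by value at 9.88 and 27.3 in RA against 5.05 and 5.73 in Ro. The adaptor gene Ticam1 differed by -0.90 (SE 0.42). All 6 negative regulators tested were lower in RA by value with a median of only -0.20, and 1 of them, Socs1, without overlap. The largest differences were those of the kinase inhibitor genes Socs1, at 183 and 198 in RA and 349.8 and 472 in Ro, and Socs3, at 365 and 478 in RA and 437 and 1013 in Ro. Ptpn2 had a log2 difference of -0.24.

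Most other induced genes also had lower values in RA. Over all tested probe sets, 62.6% were lower in RA than in Ro by value and 28.0% without overlap. Of 26 other interferon-stimulated genes tested, 24 were lower in RA by value and 19 without overlap, with a median log2 difference of -0.69. The largest were Gm4951, an interferon-inducible GTPase gene, at 47.4 and 103 in RA and 387 and 289 in Ro, Parp12 at 94.3 and 138 in RA and 572 and 246 in Ro, and Slfn8 at 294 and 820.0 in RA and 1432 and 1315 in Ro. Among 13 genes known chiefly for induction by interferon gamma, 12 were lower by value and 11 without overlap (median -0.89). Gbp2, a guanylate-binding protein gene of that response, had 981 and 1460.4 in RA and 5410.1 and 3926 in Ro, but 1366 and 3309 in Control, so that it was higher on Control replicate 2 than on Control replicate 1, whereas 34 of 36 members were lower there. Gbp3 had 159 and 332 in RA, 885 and 803 in Ro and 278 and 75.8 in Control. The chemokine gene Cxcl10 was dim at 1.94 and 19.9 in RA and 49.9 and 37.0 in Ro. Of these 13 genes, only Gbp2, Cxcl10 and Irf8 were higher on Control replicate 2 than on Control replicate 1.

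**Figure D4:**
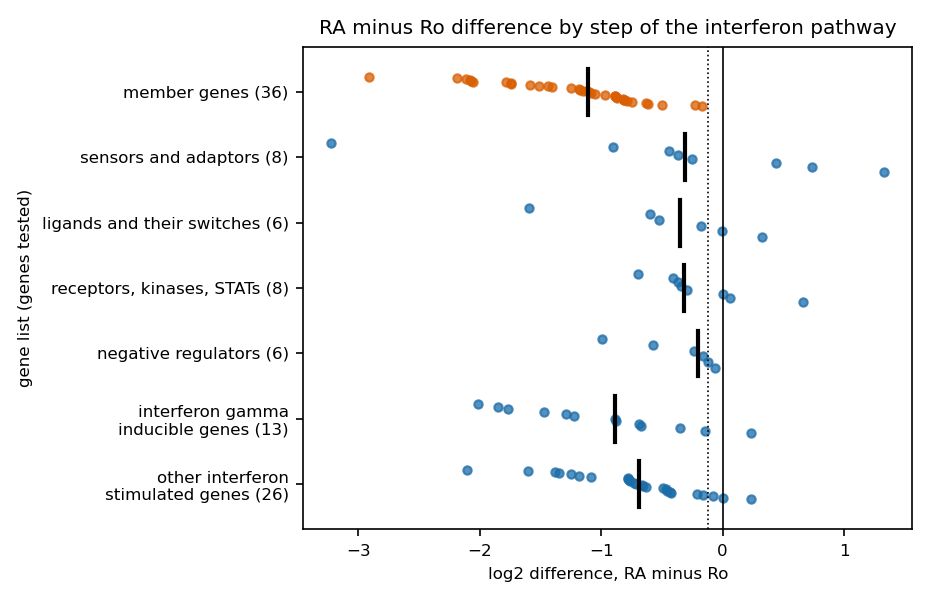
Log2 difference of RA minus Ro (horizontal axis) for single genes (points) in the 36 members and in 6 other lists of the pathway (vertical axis, with the number of genes tested), with list medians as solid bars and the median of all tested probe sets as a dotted line. Medians of the lists of sensors, ligands, receptors and negative regulators lie between -0.35 and -0.20. Those of the members and of the 2 lists of induced genes lie between -1.11 and -0.69.

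Markers of other cell types moved with some of these values. In bulk RNA, fewer cells of a type and less RNA per cell cannot be told apart. All 6 mast cell and basophil markers were lower in RA than in Ro without overlap (28.0% of all tested probe sets). Their summed signal was 1514 and 1366 in RA, 5704 and 3734 in Ro, and 3817 and 42.0 in Control. That is close to the order of the arrays by the member median. Their part in the interferon result was not tested. The 9 macrophage and dendritic cell markers summed to 525 and 517 in RA, 1261 and 461 in Ro, and 1778 and 194 in Control. Lyz2, the lysozyme of myeloid cells, led the sum on every array but Control replicate 2. It had 291 and 232 in RA, 622 and 161 in Ro, and 1287 and 9.57 in Control. Of these 9, Mpeg1 and Adgre1 were lower in RA than in Ro without overlap, Itgax and Flt3 were higher, and the other 5 overlapped. Mpeg1, a pore-forming protein of macrophages, had 10.3 and 25.9 in RA against 206 and 62.8 in Ro, and Adgre1, the F4/80 antigen, 47.6 and 58.4 against 122 and 68.1. Csf1r, the receptor for a macrophage growth factor, had 57.6 and 58.2 against 66.9 and 55.5. The part of these cells in the interferon result was not tested either. Siglech, a defining gene of plasmacytoid dendritic cells, which are strong producers of interferon, lay between 1.35 and 12.7 on all arrays, at or near the bottom of the scale. The summed signal of its list of 6 genes, 1537 and 1021 in RA, 312 and 480 in Ro and 235 and 2082 in Control, followed Ccr9 in RA, at 1357 and 733, and Irf8 on Control replicate 2, at 1872. Of its 4 genes tested, 3 were lower in RA than in Ro by value, and Ccr9 was higher by 6.14 (SE 0.47) in log2. Irf8 is also on the list of genes induced by interferon gamma. Whether Ccr9 and Irf8 mark these cells here was not tested. NK cell markers summed to 307 and 565 in RA and 1141 and 754 in Ro but to 2092 on Control replicate 2. Klrd1 led these sums, at 223 and 322 in RA, 887 and 565 in Ro and 2060 on Control replicate 2. Eomes overlapped, at 76.1 and 230 in RA and 240 and 180 in Ro. Ncr1 lay between 7.38 and 11.9 on all arrays and did not pass the filter on dim signals. The 7 T cell markers summed to 25892 and 24120 in RA and 25666 and 29262 in Ro, with 18512 on Control replicate 2.

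**Figure D5:**
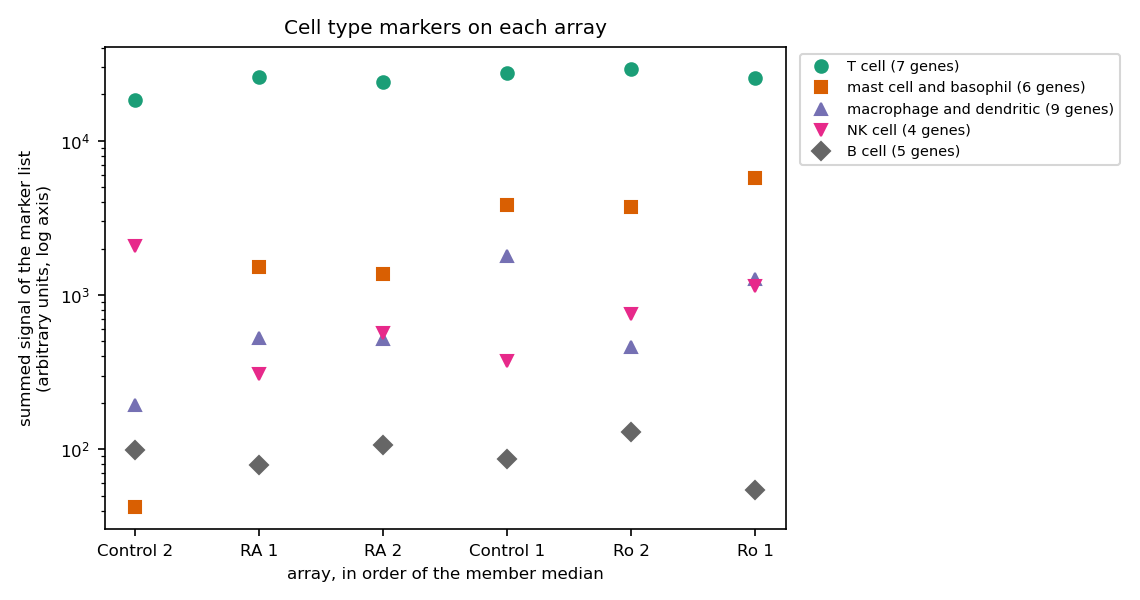
Summed signal of cell type marker lists (vertical axis, arbitrary units, log scale) on each array (horizontal axis, in order of the member median). T cell markers vary least, from 18512 to 29262, and mast cell and basophil markers most, from 42.0 on Control 2 to 5704 on Ro 1.

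Single members could also be set against the common pattern. The Pearson correlation of a member's centred values with the median profile of all members over the 6 arrays, which share the low Control replicate 2, was above 0.9 for 29 of 36, with a median of 0.975. Over the 5 arrays other than Control replicate 2 it was above 0.9 for 27, with a median of 0.953. Bst2 and Ifitm3 were the least alike over 6 arrays, at 0.125 and 0.144, and Sp100, Tor3a and Eif2ak2 over 5, at 0.218, 0.452 and 0.471. Among the 12810 other genes, which are on none of the lists, 8.38% were above 0.9 over 6 arrays and 2.51% over 5. Each member is itself part of the median profile and these genes are not, so the shares are not on equal terms. The 6 most alike over 6 arrays were Prkcd, a protein kinase C, at 0.997, Helz2 at 0.992, BC147527 at 0.992, Tssk4 at 0.992, Tab3 at 0.991 and Zdhhc15 at 0.989. Over 5 arrays only Prkcd remained among the 6 most alike. Helz2 had signals of 532 and 818 in RA, 1542 and 1335 in Ro and 1062 and 104 in Control, and Prkcd had 388 and 477 in RA, 590.0 and 538 in Ro and 574 and 228 in Control, a narrower range.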

How the data were processed

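The authors deposited linear intensity values per probe set for 6 oligonucleotide arrays. MAS5 is named in the submitters' processing notes, without its version or scaling settings. Samples were grouped by title, where the third group is written both Ro and RO. Of 45101 probe sets, 64 controls were left out, and GEO's platform annotation gave 1 symbol for 34945 of the rest, several for 932 and none for 9160. Values were log2(signal + 3.00), the pseudocount being the 20th percentile of all values, minus the array's median. This understates differences of dim genes. Tests covered probe sets that exceeded their array's 40th percentile on 2 arrays or more, that is 29531 probe sets and 12996 genes. Tests used limma 3.58.1 in R 4.3.3 (lmFit, eBayes with an intensity trend), two-sided, with 3 residual degrees of freedom and Benjamini-Hochberg adjustment over all probe sets at a threshold of 0.05, and the script was tested on simulated data. The number of arrays limits the precision. Any 2 arrays shared at most 0.00444% of their values exactly.

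The members and the 13 other lists (120 genes, 110 measured) were chosen with earlier results of these data known, so their counts are no independent evidence. All members were to be named. Of each pathway list, up to 4 genes past the threshold in RA minus Ro, or otherwise the 3 with the largest difference, were named by values, with Ifnar1, Ifnar2, Jak1, Tyk2, Irf3, Ifnb1 and Ifng in any case, and of genes on no list the 6 most like the member median. Marker genes, Samhd1, Prkcd and Helz2 were described further after their values were seen. Alternatives were other pseudocounts, scalings, filters, probe set choices, no intensity trend, a replicate block, 4-array fits and leaving out each array. The 4-array fits with a block or without 1 array, centring on tested probe sets and the 5-array likeness were added after seeing the data.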

Additional observations from a re-analysis of the deposited data

How the results depend on the processing

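For RA minus Ro, all 36 members kept a negative value under the 17 alternatives except Isg20, which ran from -1.05 to 0.049, the latter without Ro replicate 1, and no member was called in them (lowest limma adjusted p 0.452). The member median ran from -1.45 without Ro replicate 2 to -0.84 without Ro replicate 1, and was -0.94 after quantile normalization, where the median of all tested probe sets was -0.00020, 29 members and 17.1% of all lay lower without overlap, and Mx1, Herc6 and Tor3a overlapped too. It was -1.20 without centring, where the median of all tested probe sets was -0.21. Probe sets called went from 0 to 8 with only the 4 arrays and to at most 5 when 1 of the 6 arrays was left out. Leaving 1 array out of the 4 sets 2 arrays against 1, and no conclusion is drawn from the counts of those fits. In 4-array fits, 923 probe sets and 8 members were called without Ro replicate 1 and 501 and 24 without Ro replicate 2, and 0 in the other such fits. For RA minus Control, leaving out 1 array gave medians from -0.54 to 2.36, 0 to 24 members called and 0 to 3361 probe sets called, and for Ro minus Control 0 to 31 members and 0 to 5182 probe sets. The causes were not tested. The count of 26 members higher in Ro than Control without overlap (30.9% of all tested probe sets) was 17 (17.3%) after quantile normalization.

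The labels give no pairing behind the replicate numbers, and with 2 pairs the data cannot settle one: deviations from group means correlated at 0.005 (Control with RA), -0.029 (Control with Ro) and 0.249 (RA with Ro). With the replicate block on all 6 arrays, 0 probe sets and 0 members were called in each comparison. With the replicate block on the 4 RA and Ro arrays, 148 probe sets (0.530% of all) and 6 members were called, Zbp1, Stat2, Ifit1, Ifit3, Mx2 and Cmpk2, each lower in RA. Dim signals limit the folds against Control replicate 2 of members that were dim on that array, such as Oasl2 at 1.36. Others were bright there, such as Samhd1 at 2307.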
